A study of Schizosaccharomyces pombe with 2 samples.

Results

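The outer 20 kb of the left end of chromosome 3 of fission yeast (Schizosaccharomyces pombe) was described from a tiling array, a slide whose short probes step along the genome on both strands. Every non-control probe that lies between positions 1 and 20000 of chromosome 3 in the array files was taken, which gave 398 of 43993 probes, 199 on each strand. Of these, 388 were used (189 plus, 199 minus), because 1 was an outlier spot and 9 were not well above background in any channel. The stretch was chosen because asf1-1 and the hip1 deletion were already known to part there, so the differences between the mutants are given as description only.

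RNA of asf1-1, a mutant allele of asf1, was hybridised in red (Cy5) on 1 array, and RNA of the hip1 deletion (∆hip1) in red on the other, each against wild-type RNA in green (Cy3). All cultures grew exponentially in rich medium at 30 °C, and ribosomal RNA was depleted from the extracts before labelling, per the labels' protocols. With 1 array per mutant and no dye swap there was no replicate and no test, an SD is over probes and covers spot differences only, and the number of arrays limits the precision. The sources used here do not say whether the wild-type extract was the same on the arrays.

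Fission yeast carries its ribosomal RNA genes (rDNA) as tandem repeats at both ends of chromosome 3, each repeat holding a transcribed unit and a spacer that separates it from the next. The rDNA is also one of the places where this yeast forms heterochromatin, which restrains transcription by RNA polymerase II. Asf1 is a chaperone that binds histones H3 and H4 and passes them on, and Hip1 belongs to the HIRA complex, which deposits those histones outside DNA replication.

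In the RefSeq gene table of assembly ASM294v3, 17 genes stand on the left of chromosome III before the first protein-coding gene, and 7 of them are rRNA genes and 10 are long non-coding RNA genes. Their order alternates. After the rRNA gene SPRRNA.42 come 4 non-coding genes, then SPRRNA.47, SPRRNA.50 and SPRRNA.43, then 4 more non-coding genes, then SPRRNA.48, SPRRNA.51 and SPRRNA.44, and finally SPNCRNA.1094 and SPNCRNA.1095. In that table rRNA genes of 3485, 165 and 1842 bp each occur as 2 copies 10870 bp apart. The sources used here do not name the genome build of the array positions, so no probe was assigned to a gene, and all positions below are those of the array files.

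The strands differed in how the mutants stood to wild type. Ratios are log2 of mutant over wild type, normalized within each array, and the difference is the asf1-1 ratio minus the ∆hip1 ratio. On the plus strand the median ratio was -0.56 ± 2.44 (SD over 189 probes) in asf1-1 and -1.04 ± 0.59 in ∆hip1. On the minus strand it was 1.09 ± 1.45 (SD over 199 probes) in asf1-1 and 0.37 ± 0.79 in ∆hip1. The wide plus-strand SD in asf1-1 came with 2 separate sets of probes, 58 at least 2-fold above wild type and 70 at least 2-fold below it. In ∆hip1, 1 was above and 100 were below. Of all plus-strand probes used on the array, 15.7% were above and 14.2% below in asf1-1, and 14.0% and 7.85% in ∆hip1. The median difference between the mutants was 0.42 on the plus and 0.52 on the minus strand. The latter turned to -0.14 with arrays centred on their medians in place of loess, and the plus-strand asf1-1 median to 0.47 with the wild-type channels exchanged between arrays and to 0.38 as a mean.

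Counted over both strands, 164 of 388 probes (42.3%) were at least 2-fold higher in asf1-1, against 16.6% of all 40664 probes used on the array. At least 2-fold lower were 71 (18.3%, against 13.5% of all). A share given as of all, here and below, is the part of all probes or windows on the array past the same fold. In ∆hip1, 47 were at least 2-fold higher (12.1%, against 14.9% of all) and 104 lower (26.8%, against 7.41% of all). These counts became 22 and 161 with the scanner log ratio and 22 and 158 in the authors' series table. The difference between the mutants was at least 2-fold towards asf1-1 at 115 probes (29.6%, against 2.29% of all). It was at least 2-fold towards ∆hip1 at 7 (1.80%, against 3.73% of all). Because the stretch was chosen on these ratios, nothing is read from those shares. The mutants stood on opposite sides of wild type, asf1-1 at least 2-fold higher and ∆hip1 at least 2-fold lower, at 18 probes, every one on the plus strand (0.0664% of all probes, 27 on the whole array). The reverse was seen at 0 probes.

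A locus was called where the running median of the difference over 5 neighbouring probes of a strand stayed at least 2-fold in 1 direction for 5 or more probes. There were 6 such loci, 2 on the plus and 4 on the minus strand, and the asf1-1 ratio was the higher in all 6. In the next 30 kb inwards every locus by this rule also had the asf1-1 ratio higher, with median differences from 1.62 to 2.70. The 6 loci of the outer 20 kb held 64 plus-strand and 40 minus-strand probes. Over the whole array the same rule gave 43 loci with asf1-1 higher and 39 with it lower, and 1.26% of all probes lay in the former.

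The outer plus-strand locus ran from 2661 to 5920 of chromosome 3 and held 33 probes. Median log2 signals there were 12.54 in asf1-1 against 9.72 in wild type on the same array, and 7.84 in ∆hip1 against 8.87 in wild type. By these medians the signal of this strand was above wild type in asf1-1 and below it in ∆hip1. The lower side in ∆hip1 was not particular to the locus. Plus-strand probes outside the loci had median ratios of -1.17 in ∆hip1 and -1.18 in asf1-1. With median centring the ∆hip1 median of the locus was -0.35. The median ratio was 2.89 ± 1.84 in asf1-1 and -0.81 ± 0.53 in ∆hip1 (SD over 33 probes), with a median difference of 4.09 ± 2.02 and individual probes between 0.02 and 7.50. In asf1-1, 30 of the 33 probes were at least 2-fold above wild type (15.7% of all plus-strand probes). In ∆hip1, 11 were at least 2-fold below it (7.85% of all plus-strand probes) and 0 above (14.0%). Outside the loci, 80 of 125 plus-strand probes were at least 2-fold below wild type in ∆hip1. The locus was called on the difference, so nothing is read from its counts.

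At the probe with the largest difference of this locus, 3661 to 3720, the deposited median intensities were 49684 in asf1-1 and 749 in wild type on that array, and 170 in ∆hip1 and 225 in wild type on the other. Intensities are as deposited, before background and dye correction, so the normalized ratios can differ from their quotient, and here they were 6.03 and -1.47. The difference of 7.50 was also the highest of all probes used on the array. At the other end, probe 5761 to 5820 read 162 in asf1-1 against 67 in wild type, and 56.5 in ∆hip1 against 38 in wild type, and its difference was 0.02. Both wild-type channels and the ∆hip1 channel were not well above background at that probe, so for asf1-1 only a bound of at least 1.05-fold can be given and for ∆hip1 none.

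The inner plus-strand locus ran from 13561 to 16620 and held 31 probes with values close to those of the outer one. Median log2 signals were 13.57 in asf1-1 against 9.63 in wild type, and 8.16 in ∆hip1 against 9.04 in wild type. The median ratio was 3.69 ± 1.91 in asf1-1 and -0.82 ± 0.61 in ∆hip1 (SD over 31 probes), and the median difference was 4.30 ± 2.05. Again most of the stretch was above wild type in asf1-1, 27 of 31 probes being at least 2-fold above it (15.7% of all plus-strand probes). In ∆hip1, 9 were at least 2-fold below (7.85% of all plus-strand probes) and 1 above (14.0%). Its largest difference, 7.09, was at probe 14861 to 14920, with 28854.5 in asf1-1 against 345.5, and 368 in ∆hip1 against 405.5, and a normalized asf1-1 ratio of 5.99. Its smallest, 0.02, was at probe 14261 to 14320, where both mutants were higher than wild type (1310 against 117, and 536 against 94, with ratios of 1.22 and 1.20). In both plus-strand loci the probes thus ranged from a difference near 0 to one above 7 on the log2 scale.

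The outer edges of both loci were sharp in asf1-1. The ratio went from -1.24 at the plus-strand probe starting at 2561 to 1.72 at 2661 and 3.55 at 2761, where the intensities were 222478 in asf1-1, 20331 in its wild type, 1019 in ∆hip1 and 1271 in its wild type. At the inner locus it went from -0.06 at 13461 to 2.70 at 13561, where they were 146900, 24607, 723 and 1015. At these outer edges the wild-type channel itself was far higher on the asf1-1 array than on the ∆hip1 array, by 4.01 on the log2 scale at probe 13561 after the arrays were brought to a common intensity distribution. The part of that wild-type signal in the asf1-1 values was not tested.

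On the minus strand, 2 loci lay within the span of the plus-strand loci, so the signal at probes of both strands was above wild type in asf1-1 there. Whether RNA of both strands was present was not tested. The outer one ran from 3111 to 4570 (15 probes), with median log2 signals of 14.18 in asf1-1 against 9.99, and 10.67 in ∆hip1 against 10.91. Its median ratio was 4.20 ± 1.80 in asf1-1 and -0.09 ± 0.43 in ∆hip1 (SD over 15 probes). In asf1-1, 14 of the 15 probes were at least 2-fold above wild type (17.5% of all minus-strand probes). ∆hip1 was within 2-fold of wild type at all but 1 of these probes, which was lower. Probe 3411 to 3470 had the largest difference, 6.13, with intensities of 43810 in asf1-1 against 545 and of 553 in ∆hip1 against 262.5, and normalized ratios of 6.23 and 0.10. Probe 3111 to 3170 had the smallest, 0.93, with 1930 against 1172 and 650.5 against 1537.5, and normalized ratios of -0.47 and -1.40, so the asf1-1 spot that was brighter than wild type as deposited was on the lower side after loess.

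The inner minus-strand locus, 14011 to 15470 (15 probes), gave nearly the same picture. Median log2 signals were 12.98 in asf1-1 against 10.05, and 10.01 in ∆hip1 against 10.03. The median ratio was 4.02 ± 1.93 in asf1-1 and -0.18 ± 0.46 in ∆hip1, and the median difference was 4.0 ± 1.66. In asf1-1, 14 of 15 probes were at least 2-fold above wild type (17.5% of all minus-strand probes). Its extremes were probe 14211 to 14270 with a difference of 5.90 (27619.5 against 434, and 413 against 219, with normalized ratios of 5.69 and -0.21) and probe 14011 to 14070 with 0.75 (1382.5 against 790.5, and 333 against 560, with normalized ratios of -0.87 and -1.62). At both minus-strand loci asf1-1 was therefore far from wild type where ∆hip1 was near it. On the plus strand ∆hip1 was on the lower side, inside the loci and outside them.

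The remaining pair of loci was short and of another kind. At 8311 to 8770 on the minus strand (5 probes) the median ratio was 2.44 ± 0.97 in asf1-1 and 0.88 ± 0.70 in ∆hip1, and at 19211 to 19670 (5 probes) it was 2.32 ± 0.14 and 1.06 ± 0.30. Both medians were above 0 in each mutant, and the median differences were 1.57 ± 0.30 and 1.22 ± 0.28. By the scanner log ratio the ∆hip1 medians came to 0.17 and 0.35 only, and in the authors' series table to 0 and 0. The mutant channels were nearly level, with median log2 signals of 18.71 in asf1-1 and 18.50 in ∆hip1 at the first, and 18.73 and 18.52 at the other. The wild-type channels were not, with 16.40 beside asf1-1 and 17.68 beside ∆hip1 at the first, and 16.40 and 17.47 at the other. No probe of these 10 had mutant channels 2-fold apart, and with the wild-type channels exchanged between arrays the differences turned to -0.89 and -0.85. The largest difference at 8311 to 8770 was 1.71 (685511 in asf1-1 against 58572.5, and 681626 in ∆hip1 against 168460, at probe 8411 to 8470), and the smallest was 0.97. At 19211 to 19670 the largest was 1.79 (433932 against 80156, and 371081 against 216597, at probe 19511 to 19570), and the smallest was 1.1.

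At the 4 long loci the mutant channels differed by medians of 3.47 to 5.13, and by up to 7.96 at a probe. The wild-type channels also entered the difference of the ratios. They differed by medians of 0.54 and 0.41 at the plus-strand loci and -0.59 and -0.67 at the long minus-strand loci, with probes from -1.77 to 4.01. Over the 64 plus-strand locus probes the asf1-1 channel exceeded the ∆hip1 channel by a median of 4.89 (SD 1.97), with 60 of the 64 at least 2-fold higher (3.01% of all probes) and 0 lower (2.99% of all). The wild-type channels of the same probes differed by a median of 0.45 (SD 1.31), with 24 at least 2-fold higher on the asf1-1 array (0.893% of all) and 7 at least 2-fold lower (0.28% of all). Over all 40 minus-strand locus probes, the short pair included, the asf1-1 channel was higher by a median of 2.75, with 28 probes at least 2-fold higher, while the wild-type channel differed by a median of -0.70, with 12 at least 2-fold lower and 0 higher. Levels set across the arrays rest on intensities brought to 1 distribution, and without that step the wild-type median over the plus-strand loci was 1.17.

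Within each plus-strand locus the wild-type channels changed sides, and 3 stretches were set apart by that after the values were seen. In the central stretch of the outer locus, 3861 to 4820 (10 probes), the wild-type channel was lower on the asf1-1 array, with a median difference of -0.87 (range -1.09 to -0.59), and the asf1-1 channel was above the ∆hip1 channel by 5.11. There the asf1-1 ratio was 4.89 ± 0.83 and the ∆hip1 ratio -0.96 ± 0.28. In the stretch before it, 2661 to 3820 (12 probes), the ratios were 3.64 ± 1.77 and -0.37 ± 0.51 with wild type higher on the asf1-1 array by 0.96, and in the stretch after it, 4861 to 5920 (11 probes), they were 1.40 ± 1.01 and -1.16 ± 0.51 with wild type higher by 0.78. The asf1-1 channel exceeded the ∆hip1 channel in all 3 stretches, by medians of 5.78, 5.11 and 3.39 in order.

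The inner locus went through the same sequence. Its central stretch, 14661 to 15520 (9 probes), had ratios of 5.02 ± 0.66 and -1.05 ± 0.34, a wild-type channel lower on the asf1-1 array (difference -1.05), and mutant channels apart by 5.16. Before it, from 13561 to 14620 (11 probes), the ratios were 3.68 ± 1.54 and -0.47 ± 0.66. After it, from 15561 to 16620 (11 probes), they were 1.82 ± 1.66 and -0.89 ± 0.54. The mutant channels differed by 6.94 before it and by 3.75 after it. Since the central stretches were set by a low wild-type channel beside asf1-1, which is the denominator of its ratio, the high ratio there is not read as a peak of asf1-1 RNA. By their medians, the mutant channels were furthest apart in both loci in the stretch before the central one. Wild type was also higher on the asf1-1 array there, by 0.96 in the outer and 1.26 in the inner locus. The difference of the ratios was larger in the central stretches, 5.90 and 6.11, than before them, 4.22 and 4.27. Neither order is therefore read as the place of most asf1-1 RNA.

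The loci came in pairs at a fixed distance. The starts of the outer and inner member were 10900 bp apart in each of the 3 pairs, and the ends were 10700, 10900 and 10900 bp apart. When the 20 kb was set against itself at shifts from 2 to 16 kb in steps of 100 bp, the correlation across probes was highest at 10900 bp on both strands and in all 4 channels. On the plus strand r at that shift was 0.85 in asf1-1, 0.84 in its wild type, 0.78 in ∆hip1 and 0.85 in its wild type (83 probe pairs). On the minus strand it was 0.90, 0.96, 0.96 and 0.96 (85 probe pairs). The highest values at shifts more than 1 kb away were 0.25 to 0.32 on the plus and 0.35 to 0.41 on the minus strand. The pairs share arrays, hybridisation and neighbourhood, and whether paired probes also share sequence was not analysed here, so the inner member is no independent repeat of the outer one.

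Probe by probe the paired positions had similar values. The difference between the mutants correlated between the copies with r of 0.92 over 83 plus-strand pairs and 0.91 over 85 minus-strand pairs. The asf1-1 ratio of the inner copy minus that of the outer was 0.13 ± 1.02 at the median on the plus strand and -0.04 ± 0.85 on the minus strand, and for ∆hip1 it was 0.03 ± 0.53 and -0.04 ± 0.50. In asf1-1, 27 plus-strand pairs were at least 2-fold above wild type in both copies, out of 31 in the outer and 27 in the inner copy. Of all plus-strand probes on the array, 15.7% were past that fold. For the minus strand it was 37 pairs, out of 43 and 44, against 17.5% of all minus-strand probes. The pairs include probes of the loci, so nothing is read from these counts.

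Outside the loci the difference between the mutants is small by the way loci were called, and the ratios of each mutant are given as values. On the plus strand (125 probes) the median ratio was -1.18 ± 0.75 in asf1-1 and -1.17 ± 0.56 in ∆hip1, and the median difference was 0.07 ± 0.60. At least 2-fold lower were 70 and 80 probes, against 14.2% and 7.85% of all plus-strand probes on the array. Both channels of the asf1-1 array were somewhat above those of the other array at these probes, by a median of 0.44 in the mutants and 0.50 in wild type. On the minus strand the medians over 159 probes were 0.81 in asf1-1 and 0.51 in ∆hip1. At least 2-fold higher were 69 and 41 probes, against 17.5% and 15.7% of all minus-strand probes on the array. The median difference there was 0.31, with 17 probes at least 2-fold towards asf1-1 (2.24% of all minus-strand probes) and 3 towards ∆hip1 (3.46%). Over the whole stretch 57 probes were at least 2-fold lower on both arrays (5.92% of all), every one on the plus strand, and 40 were at least 2-fold higher on both (12.1% of all), 39 of them on the minus strand. Both mutants were labelled in the same dye, so a dye bias cannot be told apart from a change in both.

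By 1-kb windows, of which there were 40, asf1-1 was at least 2-fold higher in 18 (13.6% of all windows on the array) and lower in 8 (7.42% of all). ∆hip1 was higher in 3 (12.7% of all) and lower in 12 (3.61% of all). On both arrays at once, 7 on the plus strand were at least 2-fold lower (2.53% of all) and 3 on the minus strand at least 2-fold higher (9.93% of all). The most marked lower windows of the plus strand were 8061 to 9020, at -1.58 ± 0.45 in asf1-1 and -1.72 ± 0.35 in ∆hip1, and 10061 to 11020, at -1.76 ± 0.94 and -1.58 ± 0.61. They were followed by 19061 to 19920, at -1.32 ± 0.59 and -1.55 ± 0.55, and 11061 to 12020, at -1.21 ± 0.54 and -1.43 ± 0.27. The most marked higher windows of the minus strand were 9011 to 9970, at 1.21 ± 0.92 and 1.66 ± 0.54, and 51 to 970, at 1.91 ± 0.90 and 1.15 ± 0.94. The plus-strand windows that were lower in both mutants lay between the long loci and on either side of them.

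The mutants differed by at least 2-fold in 11 of the 40 windows, 7 plus and 4 minus (1.26% of all windows on the array), and in each asf1-1 was the higher. The largest median differences were on the plus strand, with 5.87 at 4061 to 5020, 5.69 at 15061 to 16020, 5.51 at 14061 to 15020 and 5.02 at 3061 to 4020. Those of the minus strand were 4.86 at 14011 to 14970, 4.10 at 3011 to 3970 and 2.64 at 4011 to 4970. The window from 5061 to 6020 of the plus strand had a difference of 2.90. The other 29 windows had differences between -0.58 and 0.99, so 0 windows were 2-fold towards ∆hip1 (0.959% of all).

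The same contrast was also counted in other tiled stretches, as description only. In the next 30 kb inwards on chromosome 3, the difference was at least 2-fold towards asf1-1 at 101 of 564 probes (17.9%), against 115 of 388 (29.6%) in the outer 20 kb. In the block of chromosome 2 that starts at 4491601 it was 64 of 896 (7.14%), with 96 the other way. A difference of at least 16-fold was reached by 53 probes on the whole array, and 52 of them lay in the outer 20 kb. Outside it, the largest median difference of a locus with asf1-1 higher was 2.70 and the longest such locus held 29 probes. These counts use the contrast by which the stretch was chosen, so no concentration of differences is read from them.

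The boundary at 20000 did not coincide with a step between the mutants. The last plus-strand probe inside, 19861 to 19920, had ratios of -2.19 in asf1-1 and -1.64 in ∆hip1, and the first outside, 20061 to 20120, had -0.30 and -0.50. The last minus-strand probe inside, 19911 to 19970, had 1.84 and 2.00, and the first outside, 20011 to 20070, had 2.26 and 2.46.

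The precision of the values follows from the spots. Of the 398 probes, 380 were well above background in wild type and 385 in asf1-1 on the first array, and 374 in wild type and 362 in ∆hip1 on the other, and 0 were marked as saturated. In wild type, 2 probes of the outer plus-strand locus, 1 of the inner, 2 of the outer minus-strand locus and 1 of the inner were not well above background beside asf1-1, and 4, 1, 1 and 1 beside ∆hip1, so ratios there are lower bounds in size for asf1-1 and uncertain for ∆hip1. The scanner software marked the local background of 21.1% to 32.4% of these probes as an outlier, depending on the channel, against 3.76% to 5.06% of all probes. Of the minus-strand probes 142 reached a mean log2 intensity of 16 or more, out of 761 on the whole array. The part of these background marks and bright neighbours in the ratios was not tested.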

How the data were processed

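The authors deposited spot and local background intensity values made with Agilent Feature Extraction 10.1.1.1, per the submitters' processing notes and the file headers, and the median intensities are not normalized. The deposited log10 ratio of red over green and the processed intensity values were background-subtracted and dye-normalized by that software, per the file headers. The deposited p-value belongs to the log ratio of 1 spot. The authors' series table holds log2 values, which equal the scanner log ratio within 0.001 and are 0 where that p-value was above 0.05. That match settles scale and direction, and no further centring was seen. The median of each of its columns was 0. Per the labels' protocols, ribosomal RNA was depleted before indirect cDNA labelling.

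Median intensities were corrected with normexp (offset 50) and normalized by loess within each array in limma 3.58.1 (R 4.3.3), on all non-control probes, with outlier spots at weight 0. Probes well above background in at least 1 of 4 channels were used. Mean intensities were quantile-normalized between the 2 arrays for single channels. Loci are runs of 5 or more probes whose 5-probe running median difference is past 2-fold, and windows are 1 kb with at least 3 probes. Every locus is named, with its probes of largest and smallest difference, as are up to 8 windows by difference and up to 6 changed alike on both arrays. The members, loci and rules were chosen with earlier results of these data known. Steps were tested on simulated arrays with a flat background and every channel set above it, unlike this stretch. That test checks the working of the code and says nothing about these loci. The steps were run in Python 3.11.15 (pandas 2.3.3, numpy 2.4.6). The alternatives were the series table, the scanner log ratio, centring on the median, other filters, thresholds and run lengths, the mean, exchanged wild-type channels and unscaled channels. Probes carry no gene names in the files, so hip1 itself was not used to check the labels, and probe sequences were not analysed here.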

Additional observations from a re-analysis of the deposited data

Results flagged for a closer look

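In the plus-strand window from 5061 to 6020 the mutants stood on opposite sides of wild type, both past 2-fold. The median ratio was 1.71 ± 1.05 (SD over probes) in asf1-1 and -1.09 ± 0.52 in ∆hip1, and the median difference was 2.90. The ∆hip1 value is near that of plus-strand probes outside the loci, where the medians were -1.17 in ∆hip1 and -1.18 in asf1-1. In the window nearest to 10900 bp further inwards, 16061 to 17020, the asf1-1 ratio did not pass 2-fold. The values there were 0.64 ± 1.16 in asf1-1 and -1.03 ± 0.53 in ∆hip1. The difference was not tested, since each mutant has 1 array.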

How the results depend on the processing

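No paired analysis was possible because there is only 1 array for each mutant. Of 134 values recomputed for the comparisons, 88 moved by less than 0.25 on the log2 scale (medians) or 1.5 times (counts), and 46 moved more. A change of sign occurred in 3 of these, the minus-strand difference with median centring and the plus-strand asf1-1 median with exchanged wild-type channels and by the mean. Among values of single loci, 85 of 144 stayed within those limits and 4 changed sign, all with the wild-type channels exchanged. These were the difference at the short minus-strand loci (-0.891 and -0.846) and the ∆hip1 median at the long ones (0.165 and 0.0866). Medians are given plus strand first.
With the scanner log ratio, asf1-1 medians were -0.811 and 0.744, ∆hip1 medians -1.74 and 0.0369 with 22 probes higher and 161 lower, and the plus-strand difference 0.70. With the series table, the minus-strand asf1-1 median was 0.744, ∆hip1 medians were -1.73 and 0 with 22 higher and 158 lower, and the plus-strand difference was 0.724.
With median centring in place of loess, which removes array medians of 0.93 (asf1-1) and 0.16 (∆hip1), the minus-strand asf1-1 median was 0.421, the minus-strand difference -0.139, and 20 probes had a lower difference. With exchanged wild-type channels, plus-strand medians were 0.468 in asf1-1 and -1.65 in ∆hip1, differences 1.99 and 0.219, and 15 probes had a lower difference.
At 1.5-fold, 79 probes were higher and 161 lower in ∆hip1, the difference was higher at 177 and lower at 28, and there were 11 loci with asf1-1 higher and 2 lower. At 4-fold, 94 were higher and 18 lower in asf1-1, 9 higher and 11 lower in ∆hip1, and 0 had a lower difference. By the mean, asf1-1 gave 0.379 and 1.36 and the difference 1.42 and 0.906.
Without quantile normalization, the mutant channels in the loci differed by 5.55 and 3.29 and the wild-type channels by 1.17 and -0.19. With processed signals these were 5.97, 3.74, 1.44 and -0.317. Leaving out the locus probes, an alternative chosen after seeing the data, left 70 probes higher in asf1-1 and 19 with a higher difference. The causes of these moves were not tested.
The median difference of the 4 long loci lay between 2.80 and 5.35 over the alternatives. These loci were called on that difference in the same 2 arrays, so the range describes the processing only and is no support for them. Dye bias and biological spread cannot be measured with 1 array per mutant.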
